A study of Mus musculus with 24 samples.

Results

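ChIP-seq peaks of the transcriptional regulators (TRs) ARID1B and FOXP1 in mouse cortex at the embryonic stage E15.5 were set against each other, to see where each TR had a peak that the other lacked. The members are the peaks on chromosomes 1 to 19 in the 2 lists of that stage, 70709 for ARID1B and 63281 for FOXP1, out of 311477 on these chromosomes in the 6 lists of the series. A peak was classed by whether it shared at least 1 base with a peak of the other TR. This gave 21650 ARID1B peaks without FOXP1 (called ARID1B-only here), 15475 FOXP1 peaks without ARID1B (FOXP1-only), and 44516 loci with both, a locus being the union of overlapping peaks, out of 81641 loci in all.

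All libraries came from wild-type (WT) cortex, and the study kept its wild-type mice on a CD1 background. Each TR had 2 ChIP libraries and 2 libraries of input chromatin at E15.5, and the study describes the replicates as biological. The libraries of a TR were merged before peaks were called, so each TR has 1 list at this stage, replicate error is unknown for every difference given here, and none has a p-value. The labels name the ARID1B libraries in the same way as those of the third TR, TCF7L2 (written TCF4 in the labels), and those of FOXP1 in another way, also for the input. A difference between ARID1B and FOXP1 therefore cannot be told apart from a difference between these sets of libraries or between the antibodies.

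ARID1B is a subunit of the BAF complexes, which move nucleosomes with the energy of ATP and have no marked preference for a DNA sequence of their own. FOXP1 is a forkhead transcription factor that binds DNA at short forkhead motifs and is made by many neurons of the cortex and the striatum. Loss-of-function variants in either gene are a known cause of neurodevelopmental disorders. E-boxes are the motifs of basic helix-loop-helix factors such as the neurogenins and NeuroD proteins of the developing cortex, and CTCF is a zinc finger protein that sits at insulators and at the anchors of chromatin loops.

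The ARID1B list was the deeper of the 2. The fold enrichment (reads at the summit over the background, each with 1 added) and the p-value of the peaks give 80.7 M reads for the smaller library behind the ARID1B list and 64.5 M for FOXP1. The ChIP reads came to 94.3 M for ARID1B and 64.5 M for FOXP1, and the part of depth in the class sizes was not tested. The weakest peak stood at a fold enrichment of 2.33 in the ARID1B list and 2.40 in the FOXP1 list. In bulk tissue, a lower peak can stand for fewer cells with the TR at that place or for less of it in each cell, and these cannot be told apart.

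Nucleotide sequences of the leading places are shown before the values, since the classes differed most plainly in their letters. All are windows of 121 bp centered on the summit, on the plus strand of GRCm38. The first set holds the 3 strongest ARID1B-only peaks outside the UTRs whose window contains the E-box CAGATG. The capitals mark CAGATG, which reads CATCTG where it lies on the minus strand, and the related E-box CAGCTG. These peaks lay at chr14:107329425-107329545 (intergenic, nearest coding gene Trim52), chr12:118098442-118098562 (intron, Dnah11), and chr8:18311034-18311154 (intergenic, Mcph1), with fold enrichments of 9.26, 9.08, and 8.73.
ARID1B-only, Trim52: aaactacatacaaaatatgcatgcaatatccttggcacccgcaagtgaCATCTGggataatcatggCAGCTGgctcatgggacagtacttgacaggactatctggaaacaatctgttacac
ARID1B-only, Dnah11: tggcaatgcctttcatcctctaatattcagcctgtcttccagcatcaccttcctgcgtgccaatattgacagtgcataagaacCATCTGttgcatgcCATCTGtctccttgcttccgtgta
ARID1B-only, Mcph1: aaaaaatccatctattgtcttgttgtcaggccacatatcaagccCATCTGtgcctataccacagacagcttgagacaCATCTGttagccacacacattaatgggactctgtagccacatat

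The second set holds FOXP1-only peaks with the CTCF consensus of the study's motif table, on either strand with up to 3 mismatches in 20 letters, which the long runs of capitals mark. Shown are the 2 strongest such peaks of the chromosomes searched and the fourth, which also holds an E-box. They lay in introns at chr10:89461990-89462110 (nearest coding gene Gas2l3), chr16:93454366-93454486 (Setd4), and chr12:52910994-52911114 (Akap6), with fold enrichments of 7.09, 6.58, and 6.45. These and the 3 peaks above were chosen after the shares of the letters were known.
FOXP1-only, Gas2l3: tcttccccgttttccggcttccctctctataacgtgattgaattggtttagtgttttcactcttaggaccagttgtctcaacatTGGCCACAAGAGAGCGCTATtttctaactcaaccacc
FOXP1-only, Setd4: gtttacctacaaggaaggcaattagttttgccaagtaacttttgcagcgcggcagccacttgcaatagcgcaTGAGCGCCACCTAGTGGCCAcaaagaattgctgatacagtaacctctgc
FOXP1-only, Akap6: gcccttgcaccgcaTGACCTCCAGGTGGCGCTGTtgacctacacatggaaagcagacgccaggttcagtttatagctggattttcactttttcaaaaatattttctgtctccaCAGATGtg

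The third set shows some of the strongest peaks or loci of a class. The leading ARID1B-only peak, in an intron of Nid2 (chr14:19769060-19769180), lay in a tandem repeat, with 79.3% of these bases identical after a shift of 10 bp. So did the fourth FOXP1-only peak, whose nearest coding gene was Slitrk1 (chr14:107858560-107858680), with 86.4% after a shift of 3 bp. The fifth FOXP1-only peak lay in the promoter of the histone genes Hist1h2bj and Hist1h2ag (chr13:22043032-22043152), where the capitals mark CCAAT boxes (ATTGG on the other strand) and the cAMP response element TGACGTCA. The promoter of Kmt2a (chr9:44881383-44881503), a histone methyltransferase gene, is shown for the loci with both, with E-boxes CAGATG and CATATG in capitals. It was the fourth of the leading loci with both. The windows of the other leading ones, nearest to Cwc22, Opa1, Esp38, and Mapkapk5, held neither E-box.
ARID1B-only, Nid2: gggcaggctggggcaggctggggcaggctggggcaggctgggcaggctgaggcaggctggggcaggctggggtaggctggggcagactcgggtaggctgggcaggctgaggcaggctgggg
FOXP1-only, Slitrk1: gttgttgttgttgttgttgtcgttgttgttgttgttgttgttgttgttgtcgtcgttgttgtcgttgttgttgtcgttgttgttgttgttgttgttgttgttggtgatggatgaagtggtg
FOXP1-only, Hist1h2bj: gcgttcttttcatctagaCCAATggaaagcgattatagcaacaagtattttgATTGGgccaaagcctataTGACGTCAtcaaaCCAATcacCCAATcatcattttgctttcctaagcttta
Both, Kmt2a: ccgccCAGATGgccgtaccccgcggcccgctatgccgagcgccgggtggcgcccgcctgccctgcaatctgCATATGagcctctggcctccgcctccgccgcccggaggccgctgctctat

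Most peaks of either TR overlapped a peak of the other, and those that did not were mostly weak. Of the ARID1B peaks, 30.6% were without FOXP1 (95% Wilson interval 30.3 to 31.0%), and 24.5% of the FOXP1 peaks were without ARID1B (24.1 to 24.8%). These and all later intervals cover counting error only. The median fold enrichment was 3.21 in ARID1B-only peaks and 4.37 in ARID1B peaks shared with FOXP1, and it was 3.42 in FOXP1-only and 4.56 in shared FOXP1 peaks. Peaks of 1 TR alone were also narrower, with median widths of 302 bp (ARID1B-only) and 282 bp (FOXP1-only) against 612 and 553 bp in shared peaks. From the lowest to the highest decile of its list by height, the share without the other TR went from 58.0 to 1.16% for ARID1B and from 54.0 to 0.174% for FOXP1. A −log10 p of at least 15 was reached by 2297 ARID1B-only peaks (10.6%) and by 1524 FOXP1-only peaks (9.85%), but by 50.9 and 49.5% of the shared peaks.

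**Figure D1:**
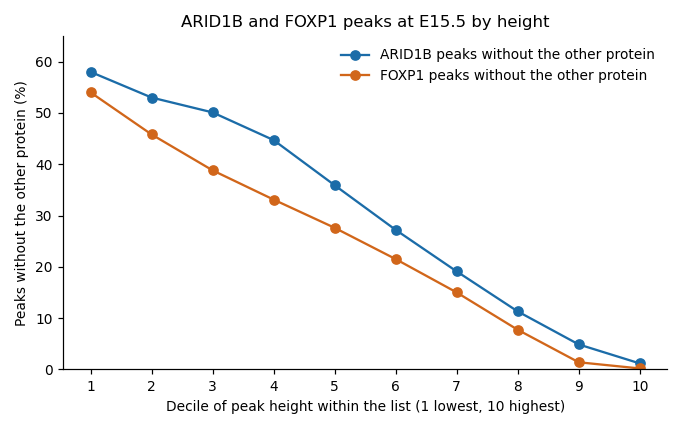
The share of peaks without the other TR (vertical axis, percent) is plotted against the decile of peak height within the list (horizontal axis, 1 lowest, 10 highest) for the ARID1B and FOXP1 lists at E15.5. Both lines fall at every step, from 58.0 to 1.16% for ARID1B and from 54.0 to 0.174% for FOXP1.

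Where both TRs had a peak, they sat close together. The 52349 overlapping pairs shared a median of 424 bp, and 94.0% of them shared at least 50% of the shorter peak. Over loci with both, the summits of the strongest ARID1B and the strongest FOXP1 peak lay a median of 74.0 bp apart. Near misses were more frequent for FOXP1. Of the FOXP1-only peaks, 34.3% had an ARID1B peak within 1000 bp, against 20.5% of the ARID1B-only peaks with a FOXP1 peak that near. When peaks within 1000 bp were also counted as shared, 17202 ARID1B-only and 10173 FOXP1-only peaks remained. With both lists held to a −log10 p of at least 15 there were 9626 ARID1B-only and 7792 FOXP1-only peaks. Taking the 30000 peaks of lowest p from each list, which makes the lists equally long, gave 9346 and 9604.

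The strongest ARID1B-only peaks lay far from promoters. The leading 5 had Nid2 (a basement membrane protein), Kcnh7 (a potassium channel), Manea (a glycan-trimming enzyme), Gprin3, and Cdh26 (a cadherin) as nearest coding genes, with fold enrichments of 10.8, 9.97, 9.97, 9.88, and 9.44. None of the 5 overlapped a promoter. Apart from the Nid2 peak, 883 bp into its gene, their summits were at least 75045 bp from the nearest coding TSS. All 5 also had an ARID1B peak at E18.5, and none had a FOXP1 peak at that stage or a TCF7L2 peak at either stage.

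The strongest FOXP1-only peaks also lay mostly outside promoters. The leading 5 had Slc15a4 (a histidine and peptide transporter), Cacng4 (an auxiliary subunit of AMPA receptors), Snrpn (a splicing factor gene of an imprinted region), Slitrk1 (a synaptic adhesion protein), and Hist1h2bj as nearest coding genes, with fold enrichments of 19.7, 17, 15.1, 12.8, and 12.7. All but the Slc15a4 peak had a FOXP1 peak at E18.5. Only the histone peak overlapped a promoter, and it alone had peaks of ARID1B at E18.5 and of TCF7L2 at both stages. Apart from the histone peak, their summits were at least 9288 bp from the nearest coding TSS.

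Tandem repeats were rare, but they gathered among the leading peaks of 1 TR. A summit window of 200 bp was counted as repetitive when at least 80% of its bases were identical after a shift of 1 to 30 bp. This held for 7 of the 50 FOXP1-only peaks of lowest p (14.0%), for 2 of the 50 ARID1B-only peaks (4.00%), and for 0 of 50 shared peaks in either list. Over all peaks the shares were 0.136% in FOXP1-only, 0.0878% in ARID1B-only, 0.0224% in shared ARID1B and 0.0293% in shared FOXP1 peaks, and 1 in 10 windows over all of chromosomes 1 to 19 gave 0.252%. Whether read mapping in repeats had a part in these peaks was not tested.

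The classes differed in their genomic place. A peak was counted as promoter (proximal) when it overlapped the 2000 bp ahead of a transcription start site (TSS) of any transcript, which make up 6.24% of the bases. Of the ARID1B-only peaks, 7.67% were at promoters (7.32 to 8.03%), against 20.2% of the FOXP1-only peaks (19.5 to 20.8%) and 35.0% of the loci with both (34.5 to 35.4%). FOXP1-only peaks were at promoters more often than ARID1B-only peaks at every height. Below a −log10 p of 8, 9.30% of ARID1B-only and 21.4% of FOXP1-only peaks were at promoters, and from 15 up the shares were 4.44 and 17.9%. Against shared FOXP1 peaks the order turned with height, since 12.8% of these were at promoters below 8, 15.2% from 8 to 15, and 53.1% from 15 up, where FOXP1-only peaks had 21.4, 19.2, and 17.9%. When both lists were first held to a −log10 p of at least 15, so that a peak counted as alone if the other TR was merely weaker there, the shares were 6.53 and 43.6%.

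Away from promoters, FOXP1-only peaks lay in exons more often than ARID1B-only peaks. Summits in coding exons made up 3.74% of the distal FOXP1-only peaks (3.42 to 4.09%), 1.13% of the distal ARID1B-only peaks (0.988 to 1.28%), and 1.42% of all bases. The 3' UTRs held 3.10 and 1.23% of the distal FOXP1-only and ARID1B-only summits. Introns held the most in both classes, 51.9 and 54.1%. Distances from the summit to the nearest TSS of any transcript were taken over all peaks of a class, with promoter peaks included. Their median was 6194 bp for FOXP1-only and 17095 bp for ARID1B-only peaks, and 2.54 and 8.42% of the peaks lay over 100 kb away.

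**Figure D2:**
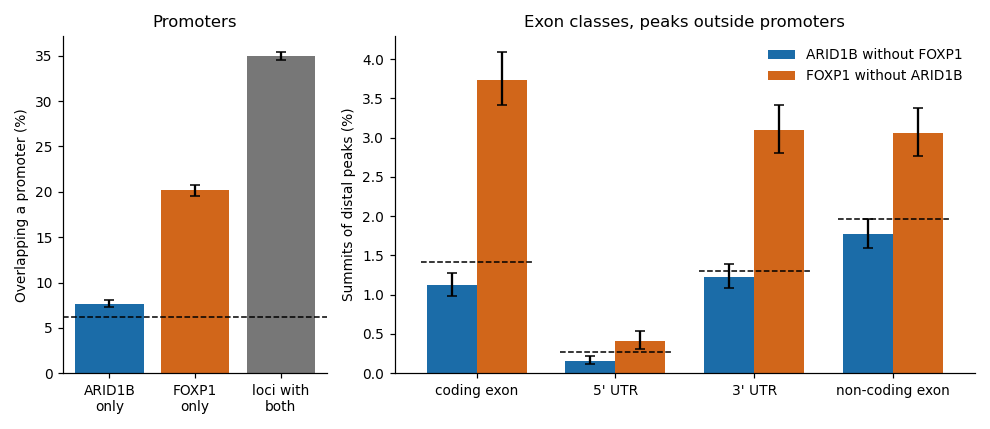
Left, the share of peaks or loci overlapping a promoter (percent). Right, the share of distal summits in 4 classes of exon (percent). Bars show the classes at E15.5 with 95% Wilson intervals, and dashed lines give the share of bases of chromosomes 1 to 19. FOXP1-only peaks stand above ARID1B-only peaks at promoters (20.2 against 7.67%) and in each exon class, with 3.74 against 1.13% in coding exons.

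At the level of genes, few promoters belonged to 1 TR alone. Of 20807 protein-coding genes on chromosomes 1 to 19, 12477 (60.0%) had peaks of both TRs in their promoter regions and 7434 (35.7%) had neither. FOXP1 alone was found at 706 genes (3.39%) and ARID1B alone at 190 (0.913%). For 587 of the 706 and 157 of the 190, a peak in the promoter was itself free of the other TR, and the rest had a broad peak that met the other TR outside the promoter. The order of these counts depended on the overlap rule. Demanding that a peak and a promoter share at least 50% of the shorter one gave 1156 genes with FOXP1 alone and 1469 with ARID1B alone, and holding both lists to a −log10 p of at least 15 gave 2483 and 129.

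Genes with both TRs at the promoter had far stronger FOXP1 peaks, with a median fold enrichment of 11.1, than genes with FOXP1 alone, with 3.67. The ARID1B medians were 5.26 at genes with both and 3.13 at genes with ARID1B alone. Promoters with FOXP1 alone carried TCF7L2 more often than those with ARID1B alone and less often than those with both, which were 60.0% of all coding genes. TCF7L2 had a peak at 35.7% of promoters with FOXP1 alone at E15.5 and at 66.4% at E18.5. The shares were 16.8 and 38.9% at promoters with ARID1B alone, 95.8 and 98.7% at promoters with both, and 0.942 and 3.23% at promoters with neither.

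The 10 genes with the strongest FOXP1-only promoter peak were mostly replication-dependent histone genes. They were Hist1h2ag (fold enrichment 12.7), Tapt1 (11.6), Pla2g12a (10.9), Hist1h2ae and Hist1h2bg (10.1 each), Agpat3 (10.00), Hist1h2ah and Hist1h2bk (9.49 each), and Hist1h2ad and Hist1h2bf (7.85 each). Histone genes in these pairs are transcribed away from each other and share 1 peak, so the 7 histone genes stand for 4 peaks. Tapt1 encodes a transmembrane protein needed for patterning of the skeleton, Pla2g12a a secreted phospholipase, and Agpat3 an enzyme of phospholipid synthesis. FOXP1 had a peak at E18.5 in all of these promoters except that of Hist1h2ad.

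The 10 genes with the strongest ARID1B-only promoter peak included no histone gene. They were Ctxn3 (6.77), Krtap14 (6.24, a hair keratin-associated protein), Tph1 (5.97, the serotonin synthesis enzyme of peripheral tissues), Col1a2 (5.44, a chain of type I collagen), Il16 and Toporsl (4.99 each), Otog and Ush1c (4.81 each, both known from the inner ear), and Dnah14 and Frmpd2 (4.73 each). Otog and Ush1c are neighbors and share 1 peak. All 10 promoters also had an ARID1B peak at E18.5, and none had a peak of FOXP1 at E18.5 or of TCF7L2 at either stage.

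In the gene lists, promoters with 1 TR alone nearly all carried FOXP1. Over all coding genes the shares were 3.39% with FOXP1 alone and 0.913% with ARID1B alone. Of 67 clustered histone genes, 45 had both TRs, 13 had FOXP1 alone, and 0 had ARID1B alone. The 6 strongest of the 13 were Hist1h2ag, Hist1h2ae, Hist1h2bg, Hist1h2ah, Hist1h2bk, and one of Hist1h2ad, Hist1h2bf, and Hist1h3d, which tie at 7.85. Copies of these genes are nearly identical, so reads within them can be lost or misplaced, and their heights are less certain than those of other promoters. Of 39 Hox genes, the position genes of the trunk that the cortex keeps silent, 6 had FOXP1 alone (Hoxc5 5.32, Hoxa13 3.67, Hoxc10 3.54, Hoxd11 3.04, Hoxb4 2.78, Hoxb9 2.78), 0 had ARID1B alone, 14 had both, and 19 had neither. Of 39 forkhead genes 7 had FOXP1 alone, led by Foxl2 (4.05), Foxc1 (3.92), and Foxc2 (3.80), then Foxn4 (3.42), Foxb2, and Foxd3 (3.04 each).

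Several shorter lists held a few promoters with FOXP1 alone, mostly at low heights, beside the 3.39% of all coding genes. Among 41 Wnt pathway genes 32 had both TRs, 4 had neither, and 5 had FOXP1 alone, namely the ubiquitin ligase gene Rnf43 (5.82), the R-spondin genes Rspo1 (3.67) and Rspo2 (3.42), Wnt2b (3.42), and Dkk3 (3.16). Of 19 striatal projection neuron genes 12 had both, 3 had neither, and 4 had FOXP1 alone, namely Six3 (3.80), Ebf1 (3.54), Gpr6 (3.54), and Ikzf1 (3.42). Of 21 endothelial and pericyte genes 10 had neither, 7 had both, and 4 had FOXP1 alone, namely Slco1c1 (4.43), Foxc1 (3.92), Sox18 (3.29), and Cdh5 (2.91). Of 14 oligodendrocyte lineage genes 5 had neither, 7 had both, and 2 had FOXP1 alone, Myrf (4.43) and Olig1 (3.16). Of 22 interneuron lineage genes 17 had both, 4 had neither, and the vesicular GABA transporter gene Slc32a1 had FOXP1 alone (7.34). FOXP1 alone was also found at Neurod4 (3.54), 1 of 13 intermediate progenitor genes, of which the other 12 had both. It was found at Lhx5 (3.42) of 10 Cajal-Retzius genes, of which 9 had both, at Slit3 (3.80) of 41 axon guidance genes, of which 40 had both, and at C1qc (3.54) of 16 microglia genes, of which 12 had neither and 3 had both.

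Zfp and oxidative phosphorylation genes lay near the 3.39% of all coding genes. Of 388 Zfp genes 17 had FOXP1 alone, led by Zfp959 (6.45), Zfp618, Zfp870, and Zfp953 (5.19 each), Zfp273 (4.94), and Zfp119a (4.68), and among 87 oxidative phosphorylation genes 3 did, the tissue-specific subunits Cox6a2 (4.43), Cox4i2 (2.91), and Cox6b2 (2.66). ARID1B alone was found at 2 promoters over all lists, those of the NMDA receptor subunit gene Grin3b (3.04) and of the olfactory receptor gene Olfr71 (2.77). Over all coding genes its share was 0.913%, beside the 3.39% with FOXP1 alone. At such shares a short list holds few promoters with 1 TR alone. The lists of BAF subunits, upper-layer neuron, deep-layer and subplate, radial glia, neuronal differentiation, Notch pathway, immediate early, cell cycle, ribosomal protein, and clustered protocadherin genes had 0 promoters with 1 TR alone. In these the promoters had both TRs or neither, as with 36 of 36 cell cycle genes with both and 53 of 57 protocadherin genes with neither.

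Away from promoters the balance leaned to ARID1B, most of all at axon guidance and deep-layer genes. Over all coding genes, each distal peak being assigned to the nearest coding TSS, there were 19989 distal ARID1B-only and 12356 distal FOXP1-only peaks, a ratio of 1.62. The ratio was 4.81 at axon guidance genes (428 against 89 peaks), 4.14 at deep-layer and subplate genes (145 against 35), 3.18 at glutamate and GABA receptor genes (140 against 44), and 2.28 at neuronal differentiation genes (169 against 74). Lists of other cell types were also above the value of all genes, with 2.47 at striatal projection neuron, 2.42 at interneuron lineage, and 2.38 at microglia genes. It was close to that of all genes at radial glia genes (1.75) and lower at upper-layer neuron genes (1.31) and intermediate progenitor genes (1.00). FOXP1-only peaks were the more frequent at immediate early genes (27 ARID1B-only against 35), ribosomal protein genes (51 against 69), Hox genes (2 against 19), and clustered histone genes (0 against 17). Long genes in gene-poor regions collect more distal peaks of any kind, and part of the difference between lists may be length, which was not tested.

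Single genes showed the same. Of 43 axon guidance genes listed, of which 41 were found in the annotation, 29 had more distal ARID1B-only than FOXP1-only peaks and 7 had fewer. These counts and those of the lists that follow here stand beside a ratio of 1.62 over all coding genes. The share of all coding genes with such an excess was not determined. Robo1, a receptor of the Slit repellents, had 39 ARID1B-only and 7 FOXP1-only peaks, the ephrin receptor gene Epha7 had 31 and 0, and Epha4 had 32 and 7. Of 17 deep-layer and subplate genes, 15 had more ARID1B-only peaks, among them the corepressor gene Tle4 with 24 against 2, Foxp2 with 16 against 1, and the ETS factor gene Etv1 with 14 against 0. Of 16 upper-layer neuron genes, 9 had more ARID1B-only and 6 had more FOXP1-only peaks, and of 41 Wnt pathway genes 14 and 15 did. Among those with more FOXP1-only peaks was Cux2, an upper-layer transcription factor gene, with 5 ARID1B-only and 16 FOXP1-only peaks. Another was Axin2, a feedback inhibitor of Wnt signaling, with 2 and 7. In the same lists Unc5d had 18 ARID1B-only and 2 FOXP1-only peaks and Tcf7l2 had 11 and 1.

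**Figure D3:**
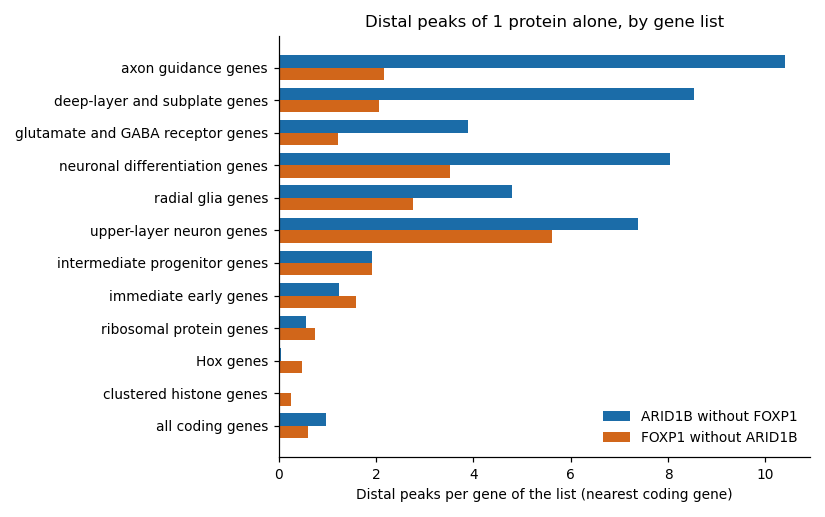
Distal peaks per gene of the list (horizontal axis) are drawn for ARID1B-only and FOXP1-only peaks, for 11 gene lists and all coding genes, each peak assigned to its nearest coding gene. ARID1B-only bars are the longer at axon guidance genes (10.4 against 2.17 peaks per gene) and deep-layer genes (8.53 against 2.06), and the bars turn at immediate early, ribosomal protein, Hox, and histone genes.

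Genes with the most distal peaks of 1 class often had peaks of the other class too. Auts2, a gene linked to neurodevelopmental disorders, led the ARID1B-only class with 65 peaks, of fold enrichment 2.59 to 5.44, and it also had 14 FOXP1-only and 90 shared ARID1B peaks. It was followed by the latrophilin gene Adgrl2 (58), the teneurin gene Tenm4 (55), Zfp608 (55), and the teneurin gene Tenm3 (52). FOXP1-only peaks were most numerous at the uncharacterized gene Gm26897 (36), the RNA-binding protein gene Celf2 (34), the transcription factor genes Tcf4 (33) and Nfib (31), and Gse1 (29). Celf2 had more distal ARID1B-only peaks than FOXP1-only ones, 42 against 34. A distal peak of ARID1B alone was nearest to 5890 genes and one of FOXP1 alone to 6386, and the 3664 genes in common were 62.2 and 57.4% of these.

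Letters at the summits set the classes apart. Windows of 200 bp centered on the summits were searched on both strands, and the shares were set beside all 11979192 windows of that length on chromosomes 1 to 19. The E-boxes and the CTCF letters were picked after a comparison of all runs of 7 letters between the classes, so their shares describe the classes and test nothing. The E-box CAGATG was in 35.9% of ARID1B-only windows (7772 of 21650), 15.9% of FOXP1-only windows (2466 of 15475), 25.8 and 24.3% of shared ARID1B and shared FOXP1 windows, and 15% of all windows. For CAGCTG the shares in ARID1B-only, FOXP1-only, and all windows were 21.3, 12.3, and 7.37%, and for CATATG they were 12.2, 3.46, and 6.28%.

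The CTCF consensus, on either strand with up to 3 mismatches, was most frequent in FOXP1-only windows. It was found in 586 of 15475 FOXP1-only windows (3.79%) and in 15 of 21650 ARID1B-only windows (0.0693%), with 1.10% of shared FOXP1, 0.565% of shared ARID1B, and 0.0301% of all windows. A wider search took AGAGGGC, another form spelled AGGGGGC, and lastly a form spelled AGGTGGC, all spellings of a stretch of that consensus, which they overlap. At least 1 of the 3 was in 28.4% of FOXP1-only, 8.78% of ARID1B-only, and 6.76% of all windows. As the printed sequences show, a FOXP1-only peak with the consensus could also hold an E-box.

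The forkhead motif TGTTTAC, the letters that a forkhead factor is known to bind, was not more frequent in FOXP1-only windows than in all windows. The study reports that the known motif of FOXP1 was enriched in its FOXP1 peaks over scrambled sequence, a background not used here. It was in 2.54% of FOXP1-only windows (393 of 15475), 4.45% of ARID1B-only windows (963 of 21650), 3.0% of shared FOXP1 windows, 3.05% of shared ARID1B windows, and 2.98% of all windows. Among distal peaks it was in 3.74% of shared FOXP1, 3.83% of shared ARID1B, 4.50% of ARID1B-only, and 2.70% of FOXP1-only windows. In 100 bp windows the FOXP1-only share was 1.29%. The FOXP1 consensus of the study's motif table, with no mismatch, gave 0.763% of FOXP1-only, 1.41% of ARID1B-only, and 0.936% of all windows. The homeobox core TAATTA and the NFI half-site TTGGCA were also more frequent in ARID1B-only windows (12 and 24.2%) than in FOXP1-only windows (4.65 and 12.4%) and in all windows (7.14 and 9.83%).

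The letters sat near the summits. In ARID1B-only peaks, CAGATG rose toward the summit, from 1.82 matches per 100 peaks in the 20 bp bin that starts 500 bp before the summit to 6.34 in the bin next to the summit. In FOXP1-only peaks the same bins held 1.62 and 1.87. The CTCF consensus peaked in the bin at the FOXP1-only summit with 0.614 matches per 100 peaks, and it was at 0.00646 in the bin 500 bp before it. The forkhead motif reached 0.577 matches per 100 peaks at the ARID1B-only summit, against 0.328 at 500 bp, and it was at 0.323 and 0.342 in FOXP1-only peaks. In shared peaks the same bins held 0.354 and 0.243 (FOXP1) and 0.379 and 0.277 (ARID1B).

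**Figure D4:**
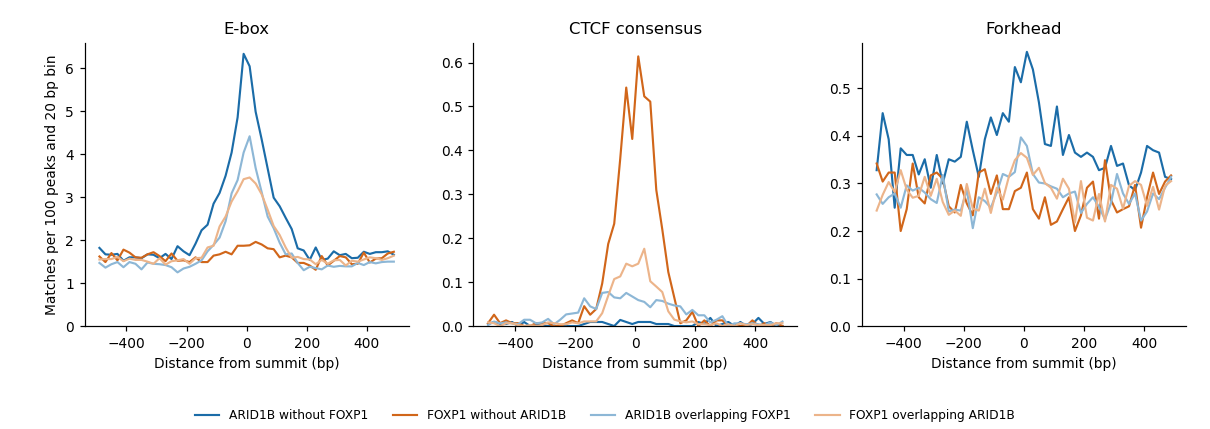
Matches per 100 peaks and 20 bp bin (vertical axes, each panel with its own scale) are drawn against the distance from the summit (horizontal axes, bp) for the E-box, the CTCF consensus, and the forkhead motif, with 1 line for each class of peak. The E-box line of ARID1B-only peaks climbs to 6.34 and the CTCF line of FOXP1-only peaks to 0.614 at the summit, and the FOXP1-only lines stay nearly level for the E-box and the forkhead motif.

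Stronger peaks carried the letters of their class more often. From a −log10 p under 8 to one of at least 15, the share with CAGATG went from 29.2 to 52.5% in ARID1B-only peaks and from 16.3 to 14.5% in FOXP1-only peaks. The share with the CTCF consensus went from 1.5 to 10.4% in FOXP1-only peaks, and in ARID1B-only peaks it was 0.107 and 0.0435%. The forkhead share went from 3.96 to 6.18% in ARID1B-only peaks and was 2.53 and 2.49% in FOXP1-only peaks. Shared peaks changed with height in the same direction. CAGATG went from 17.9 to 31.0% in shared ARID1B peaks, and the CTCF consensus from 0.326 to 1.61% in shared FOXP1 peaks. The gap was as wide among distal peaks alone. There CAGATG was in 36.5% of ARID1B-only and 16.6% of FOXP1-only windows, and the CTCF consensus in 0.0550 and 4.29%. Distal shared windows were close to ARID1B-only ones for CAGATG, with 33.1% (ARID1B) and 31.2% (FOXP1). They held the CTCF consensus in 0.765 and 1.43%. Base composition differed along with the letters. The mean GC content was 45.7% in ARID1B-only, 49.9% in FOXP1-only, 53.8% in shared ARID1B, and 41.9% in all windows, and its part in these shares was not tested.

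Among loci with both TRs, the heights of the peaks were related. Spearman's rho between the −log10 p of the strongest ARID1B and the strongest FOXP1 peak was 0.524 over 44516 loci, 0.695 over the 15570 at promoters, and 0.489 over the 28946 others. These are descriptions across loci, which share their libraries and are not independent. Over loci whose peaks both reached a −log10 p of 15 rho was 0.0252, and such a floor on both values lowers rho by its construction. The 5 leading loci by summed rank all overlapped promoters. The first was at Cwc22 (a splicing factor, fold enrichment 21.0 for ARID1B and 35.9 for FOXP1), followed by Opa1 (a mitochondrial fusion protein, 14.1 and 39.1). Then came Gm26917, Kmt2a (13.1 and 44.9), and Mapkapk5 (a protein kinase, 21.6 and 19.9). At the non-coding gene Gm26917, whose nearest coding gene was Esp38, the ARID1B peak stood at 22.2. The FOXP1 peak there was at percentile 99.3 of its list. The summit lay in a non-coding exon, and whether read mapping had a part in the heights at Gm26917 was not tested.

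Rank differences separated promoters from distal places. Each locus was given the percentile of its ARID1B peak within the ARID1B list minus that of its FOXP1 peak, and 26.5% of the loci lay within 10 percentile points of 0. In the decile of loci with FOXP1 furthest ahead (median difference −41.9), 43.1% were at promoters, and the share was 65.5% in the fourth decile and 6.22% in the decile with ARID1B furthest ahead (median 46.6). The E-box CAGATG, at the ARID1B summit, went from 13.6% of the windows in the first decile to 47.4% in the last. The CTCF consensus went from 3.14 to 0%, with 0 of 4452 windows in the last decile, and TGTTTAC from 2.04 to 5.59%. Without the promoters the values were 16.8 and 47.7% for CAGATG and 5.01 and 0% for the CTCF consensus. The letters of the peaks of 1 TR alone followed the rank difference at loci where both TRs had a peak.

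The loci with ARID1B furthest ahead were all distal. Their nearest coding genes were Fzd8 (a Wnt receptor, fold enrichment 9.08 for ARID1B and 2.78 for FOXP1), Vmn1r218 (a vomeronasal receptor, 7.57 and 2.66), Pde10a (the striatal phosphodiesterase, 8.37 and 2.91), Tmem167 (7.13 and 2.78), and Sorcs1 (a sorting receptor, 7.13 and 2.78). All 5 had an ARID1B peak at E18.5 and none had a FOXP1 peak there. FOXP1 was furthest ahead at a promoter in Hdac9 whose nearest coding TSS was that of Prps1l1 (2.77 for ARID1B and 13.0 for FOXP1), and at Taf1b (an RNA polymerase I factor, 2.86 and 15.3), Trim7 (2.59 and 8.99), Prkd3 (a protein kinase, 2.77 and 10.9), and Mcm3 (a subunit of the replicative helicase, 2.68 and 8.99). Of these, 4 were promoters, and all 5 had a FOXP1 peak at E18.5.

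**Figure D5:**
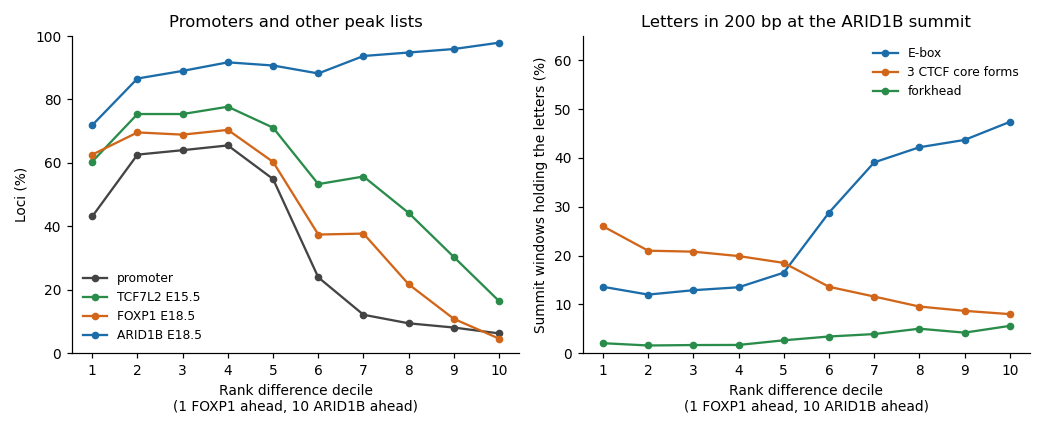
Loci with both TRs are split into deciles by rank difference (horizontal axes, 1 with FOXP1 furthest ahead, 10 with ARID1B furthest ahead). Left, the share of loci at promoters or with a peak of TCF7L2 at E15.5, FOXP1 at E18.5, or ARID1B at E18.5 (percent). Right, the share of 200 bp windows at the ARID1B summit with each set of letters (percent). The promoter line falls from 65.5% in the fourth decile to 6.22% in the last, while the E-box line climbs from 13.6 to 47.4%.

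The lists of E18.5 and of TCF7L2 took no part in making the classes. An ARID1B peak at E18.5 was present at 56.3% of ARID1B-only peaks (55.7 to 57.0%), 17.2% of FOXP1-only peaks (16.6 to 17.8%), and 90.1% of loci with both. A FOXP1 peak at E18.5 was present at 0.503% of ARID1B-only peaks (0.418 to 0.607%), 9.88% of FOXP1-only peaks (9.42 to 10.4%), and 44.4% of loci with both. The FOXP1 list at E18.5 was the shallowest of the series, with 24526 peaks and a smaller library of 26.3 M reads, so absence from it says less than absence from the other lists. Of the strongest peaks (−log10 p from 15 up), 96.6% of ARID1B-only peaks had ARID1B at E18.5 and 44.9% of FOXP1-only peaks had FOXP1 there, and only 0.566% of these ARID1B-only peaks had FOXP1 at E18.5. Holding both E15.5 lists to that threshold before classing them raised the share of FOXP1-only peaks with ARID1B at E18.5 from 17.2 to 73.3% and that of ARID1B-only peaks with FOXP1 from 0.503 to 6.74%, because a weaker peak of the other TR no longer kept a place out of the class.

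TCF7L2 met FOXP1-only peaks more often than ARID1B-only peaks, but far less often than loci with both. At E15.5 it had a peak at 11.2% of FOXP1-only (10.7 to 11.7%) and 3.46% of ARID1B-only peaks (3.22 to 3.71%), and at E18.5 at 31.5 and 12.5%. The gap was present at promoters (21.3 against 9.81% at E15.5) and at distal places (8.69 against 2.93%). Of the loci with both, 56.0% had TCF7L2 at E15.5 and 72.3% at E18.5. At E15.5 it was at 87.3% of those at promoters and 39.1% of the distal ones. Among loci with both, TCF7L2 at E15.5 was found at 60.4% of the decile with FOXP1 furthest ahead and at 16.4% of the decile with ARID1B furthest ahead.

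The genes of the TRs themselves had both TRs at their promoters. At Arid1b (chr17:4994332-5347656) the promoter peaks had fold enrichments of 5.70 for ARID1B and 8.48 for FOXP1, and at Foxp1 (chr6:98925338-99522721) 7.39 and 14.9. Both genes held more ARID1B-only than FOXP1-only peaks, with 20 against 3 within Arid1b and 27 against 8 within Foxp1. Markers of the tissue were examined in the same way, and a promoter peak is not a level of expression. Over all coding genes, 60.0% had both TRs at the promoter, 35.7% had neither, and 3.39% had FOXP1 alone. All 13 markers of radial glia, intermediate progenitors, and cortical neurons had both TRs at the promoter. Among them were Pax6 (4.64 and 7.85), Eomes (4.99 and 5.19), and Tbr1 (5.70 and 13.9). The microglia markers Csf1r, Cx3cr1, and Aif1 and the endothelial markers Cldn5 and Pecam1 had neither, and Cdh5 had FOXP1 alone (2.91). The interneuron marker Lhx6 and the oligodendrocyte lineage marker Sox10 also had neither. Other markers of these and of striatal cells had both TRs, namely Dlx2 (3.93 for ARID1B and 5.19 for FOXP1) and Gad1 (3.39 and 5.44) of interneurons, Drd1 (2.77 and 6.2), Drd2 (2.95 and 3.29), and Ppp1r1b (3.84 and 7.09) of striatal neurons, and Olig2 (2.95 and 3.42) and Pdgfra (4.28 and 6.71) of the oligodendrocyte lineage. The promoter peaks thus did not separate cortical markers from all others.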

How the data were processed

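ChIP-seq peaks of ARID1B and FOXP1 at E15.5 were analysed, with the lists of TCF7L2 and of E18.5 for comparison. The authors aligned 50 bp reads to GRCm38 with BWA 0.7.15, kept a mapping quality of 30, extended reads to 200 bp, and called peaks on merged replicates against input with MACS2 2.2.7 at a q-value of 0.01. The authors' lists hold a fold enrichment (a ratio), −log10 of the p-value and of the q-value, and a score, which was not used. Each deposited list is attached to replicate 1 and was treated as 1 list per TR and stage.

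Depth was recovered from the Poisson relation of fold enrichment to p-value. Promoters and genes came from GENCODE vM21 (the study's methods name another release), and sequence from the RefSeq copy of GRCm38. Python 3.11 scripts were tested on simulated peaks and sequence. Shares carry 95% Wilson intervals.

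The members and gene lists were chosen with earlier results of these data known. Named are Arid1b and Foxp1, the nearest genes of the 5 leading peaks or loci of each class, the 10 strongest promoters and 5 genes with most distal peaks of each TR alone, the 5 largest rank differences each way, and up to 6 promoters of 1 TR alone per gene list. Some genes that this rule names are not reported here. Genes named for the letters in their sequence or for their distal peaks within a list were added after their values were seen. Alternatives covered peak thresholds, list sizes, overlap rules, promoters, transcripts, windows, and ranking.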

Additional observations from a re-analysis of the deposited data

Results flagged for a closer look

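Chromosome X entered no comparison. It held 686 ARID1B and 760 FOXP1 peaks at E15.5, of which 239 ARID1B peaks (34.8%) were without FOXP1 and 328 FOXP1 peaks (43.2%) were without ARID1B. These are signals in data outside the comparisons, and the shares were higher than the 30.6 and 24.5% of chromosomes 1 to 19. The difference was not tested.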

How the results depend on the processing

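Replicates were merged before peaks were called, which leaves the spread between replicates unknown. No paired analysis was possible because the lists hold no values of single replicates, and none could be left out. Over 9 alternative settings of 11 results, 19 values stayed within the interval of the reported value (for counts within 1.5 times, for rho within 0.05) and 33 did not. Holding both lists to a −log10 p of at least 15 gave 9626 ARID1B-only and 7792 FOXP1-only peaks, promoter shares of 6.53, 43.6, and 54.7% (ARID1B-only, FOXP1-only, loci with both), a rho of 0.0252, 2483 genes with FOXP1 alone, shares with the other TR at E18.5 of 6.74% (ARID1B-only) and 73.3% (FOXP1-only), and a forkhead share of 2.04%. The 30000 peaks of lowest p gave, in the same order, 9346 and 9604 peaks, 6.21, 36.5, and 50.6%, a rho of 0.106, 2278 genes (and 111 with ARID1B alone), 4.60 and 66.1%, and 2.11%. Under both settings a weaker peak of the other TR no longer kept a place out of a class. An overlap of at least 50% of the shorter peak gave a promoter share of 8.99% for ARID1B-only peaks, 1469 genes with ARID1B alone and 1156 with FOXP1 alone, and E18.5 shares of 1.11 and 21.4%. A gap of up to 1000 bp gave 10173 FOXP1-only peaks, promoter shares of 5.59, 15.7, and 36.0%, and 14.8% of FOXP1-only peaks with ARID1B at E18.5. Promoters of 1000 bp on either side of a TSS gave 22.4% for FOXP1-only peaks. A window of 100 bp gave a forkhead share of 1.29%. The promoter share of FOXP1-only peaks was above that of ARID1B-only peaks in all 5 settings that changed either one.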

Other observations

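The classes were unevenly spread over the chromosomes. The number of ARID1B-only peaks per FOXP1-only peak was 0.921 on chromosome 11 (1093 and 1187 peaks) and 1.03 on chromosome 7, and it reached 1.90 on chromosome 14 and 1.98 on chromosome 16 (908 and 459 peaks). Chromosome 11 was the only one of the 19 with more FOXP1-only than ARID1B-only peaks.

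Motifs of promoter factors were most frequent where both TRs had a peak. The ETS letters CCGGAAG, searched on both strands of 200 bp windows, were in 4.54% of shared FOXP1 and 3.68% of shared ARID1B windows, against 1.60% of FOXP1-only, 0.661% of ARID1B-only, and 0.579% of all windows. The NRF1 letters GCGCATGCG were in 0.849 and 0.603% of the shared windows, 0.136% of FOXP1-only, 0.0416% of ARID1B-only, and 0.0307% of all windows. The cAMP response element TGACGTCA was in 0.889 and 0.616% of the shared windows, 0.297% of FOXP1-only, 0.148% of ARID1B-only, and 0.111% of all windows. CCAAT boxes differed little, with 23.3 to 27.7% over the 4 classes and 29.1% of all windows.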
